A study of Mus musculus with 28 samples.

Results

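The 10 genes described here carry iron, haem and copper in the blood and move iron into, within and out of the cell. They are the plasma carriers Trf, Hpx and Cp, the hormone gene Hamp, the transferrin receptors Tfrc and Tfr2, the importer Slc11a2, the ferritin chains Fth1 and Ftl1, and the exporter Slc40a1. They were taken by gene name from the count tables and the TPM tables (transcript abundance scaled for gene length and library size) of the series, as 10 of 31673 genes, and all 10 were found. RNA was sequenced from 28 libraries of 9 groups of mouse cells in a study that turned fibroblasts into endoderm progenitors with chemicals, and those progenitors into hepatocyte-like cells.

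MEF_ciHep (3 libraries) and MNF_ciHep (2 libraries) are labelled as hepatocytes induced from progenitors at passages 3 to 10. pHep (2 libraries) is hepatocytes from adult liver, not cultured through any passage. MEF_ciEPC are chemically induced endoderm progenitor cells grown from mouse embryonic fibroblasts, sampled in 2 culture series: at passages 2, 3, 4, 6, 10 and 22 in series 1, and at passages 1, 5, 10 and 22 in series 2. MNF_ciEPC (2 libraries, passages 2 and 3) are the same kind of progenitor labelled as grown from neonatal dermal fibroblasts, although their source name gives embryonic fibroblasts. ESC_EPC (2 libraries) are endoderm progenitors differentiated from mouse embryonic stem cells that were at passages 10 to 15. MEF (3 libraries) are the embryonic fibroblasts of stage E13.5 at passage 2, MNF (2 libraries) the neonatal dermal fibroblasts at passage 2, and ESC (2 libraries) the OG2 embryonic stem cells at passage 5. All donor mice carried an Oct4-GFP transgene. MEF, ESC and the cells made from them came from CBA/CaJ X C57BL/6J carriers mated with 129Sv/Jae females, whereas MNF, MNF_ciEPC, MNF_ciHep and pHep came from CBA/CaJ X C57BL/6J carriers without that mating. The source of the fibroblasts and the strain background therefore cannot be told apart. MEF_ciHep and pHep also differ in strain background, so strain goes with every difference between these groups. MNF_ciHep and pHep share the background without that mating. The labels do not say whether the libraries of a group came from separate cultures or animals, so p-values measure the spread between libraries, which may be technical.

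Plasma iron travels on transferrin (Trf), enters cells with the transferrin receptor, and leaves the endosome through the divalent metal transporter Slc11a2. Inside the cell it is stored in ferritin, a cage of heavy (Fth1) and light (Ftl1) chains, and it leaves through ferroportin (Slc40a1), which hepcidin, the peptide made from Hamp, binds and removes from the cell surface. Hepatocytes are a main source of plasma transferrin, of haemopexin (Hpx), which scavenges free haem, and of ceruloplasmin (Cp), a copper-carrying enzyme that oxidizes iron for loading onto transferrin, and they release hepcidin.

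Some of these messages carry an iron-responsive element, a stem-loop that iron regulatory proteins bind when the cell is short of iron. In a 5′ UTR the bound element blocks translation, as in both ferritins and in ferroportin, and in the 3′ UTR of Tfrc it protects the message from decay. The sites are shown because only some of the members hold this sequence feature, and RNA levels alone do not measure the effect of the sites on translation. A search of GENCODE M21 transcripts on GRCm38, on the transcribed strand, for a bulged C, 5 stem bases, the 6-base loop CAGTGN and 5 bases pairing with the stem (G with T allowed) found sites in the UTRs of 4 of the 10 members. Capitals mark the bulged C and the loop. The Tfrc sites lie at chr16:32631220-32631246, chr16:32631599-32631625, chr16:32631664-32631690 and chr16:32631711-32631737 (plus strand), that of Fth1 at chr19:9982733-9982759 (plus strand), that of Ftl1 at chr7:45459780-45459806 (minus strand) and that of Slc40a1 at chr1:45925466-45925492 (minus strand).
Tfrc 3′ UTR, site 1: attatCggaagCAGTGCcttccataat
Tfrc 3′ UTR, site 2: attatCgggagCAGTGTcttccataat
Tfrc 3′ UTR, site 3: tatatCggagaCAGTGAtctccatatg
Tfrc 3′ UTR, site 4: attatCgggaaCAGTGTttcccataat
Fth1 5′ UTR: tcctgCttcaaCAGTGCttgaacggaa
Ftl1 5′ UTR: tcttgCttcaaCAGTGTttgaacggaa
Slc40a1 5′ UTR: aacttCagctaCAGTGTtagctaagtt
Of all genes with an annotated 5′ UTR, 0.148% held such a pattern there, and of those with a 3′ UTR, 0.595%. The pattern was set beforehand as that of the known element, so these shares do not measure how unlikely the matches are. No match in the other 6 members says only that these letters are not in their annotated UTRs.

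Library totals ran between 1439670 and 6133147 estimated counts. The library labelled MEF_ciEPC series 2 passage 22 stood apart: its log expression correlated with the ESC libraries at 0.963 to 0.967 and with the other MEF_ciEPC libraries at 0.855 to 0.876, over genes. It was left out of the main values, and its own values are given beside the results that it touches, so that MEF_ciEPC has 9 libraries of 2 series. Hepatocyte markers (8 genes including Alb, Apoa1 and Ttr) summed to 11416 to 24590 TPM in MEF_ciHep and to 14459 to 27555 TPM in pHep. The single markers were less alike than these sums. Apoa1 was at 8883 to 22586 TPM in MEF_ciHep against 1408 to 7530 TPM in pHep. Alb was at 1035 to 2409 TPM in MEF_ciHep against 11138 to 14800 TPM in pHep. Every other marker of the 8 was also lower in MEF_ciHep than in pHep. In MNF_ciHep the 8 markers summed to only 26.1 to 99.9 TPM, against 30.02 to 104 TPM in MNF_ciEPC, with Serpina1c, Cps1 and Cyp2e1 at 0. The markers therefore go against the hepatocyte label of MNF_ciHep, which is called here by its name alone. The 6 fibroblast markers summed to 1070 to 2586 TPM in MNF_ciHep, against 479 to 589 TPM in MNF_ciEPC. The difference between annotated and effective gene length, a trace of read or fragment length, lay at 49.5 to 50.6 bases in MEF_ciHep, MNF_ciHep, pHep and MEF_ciEPC, at 74.3 to 74.5 bases in MNF_ciEPC, MEF, MNF and ESC, and 187 to 196 bases in ESC_EPC. Comparisons that cross these classes are MEF_ciEPC with MEF, MEF_ciEPC with ESC_EPC, ESC_EPC with ESC, MNF_ciHep with MNF_ciEPC and the differences between origins. The part of read length in them was not tested. In bulk RNA, fewer cells of a type and less RNA per cell cannot be told apart.

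**Figure D1:**
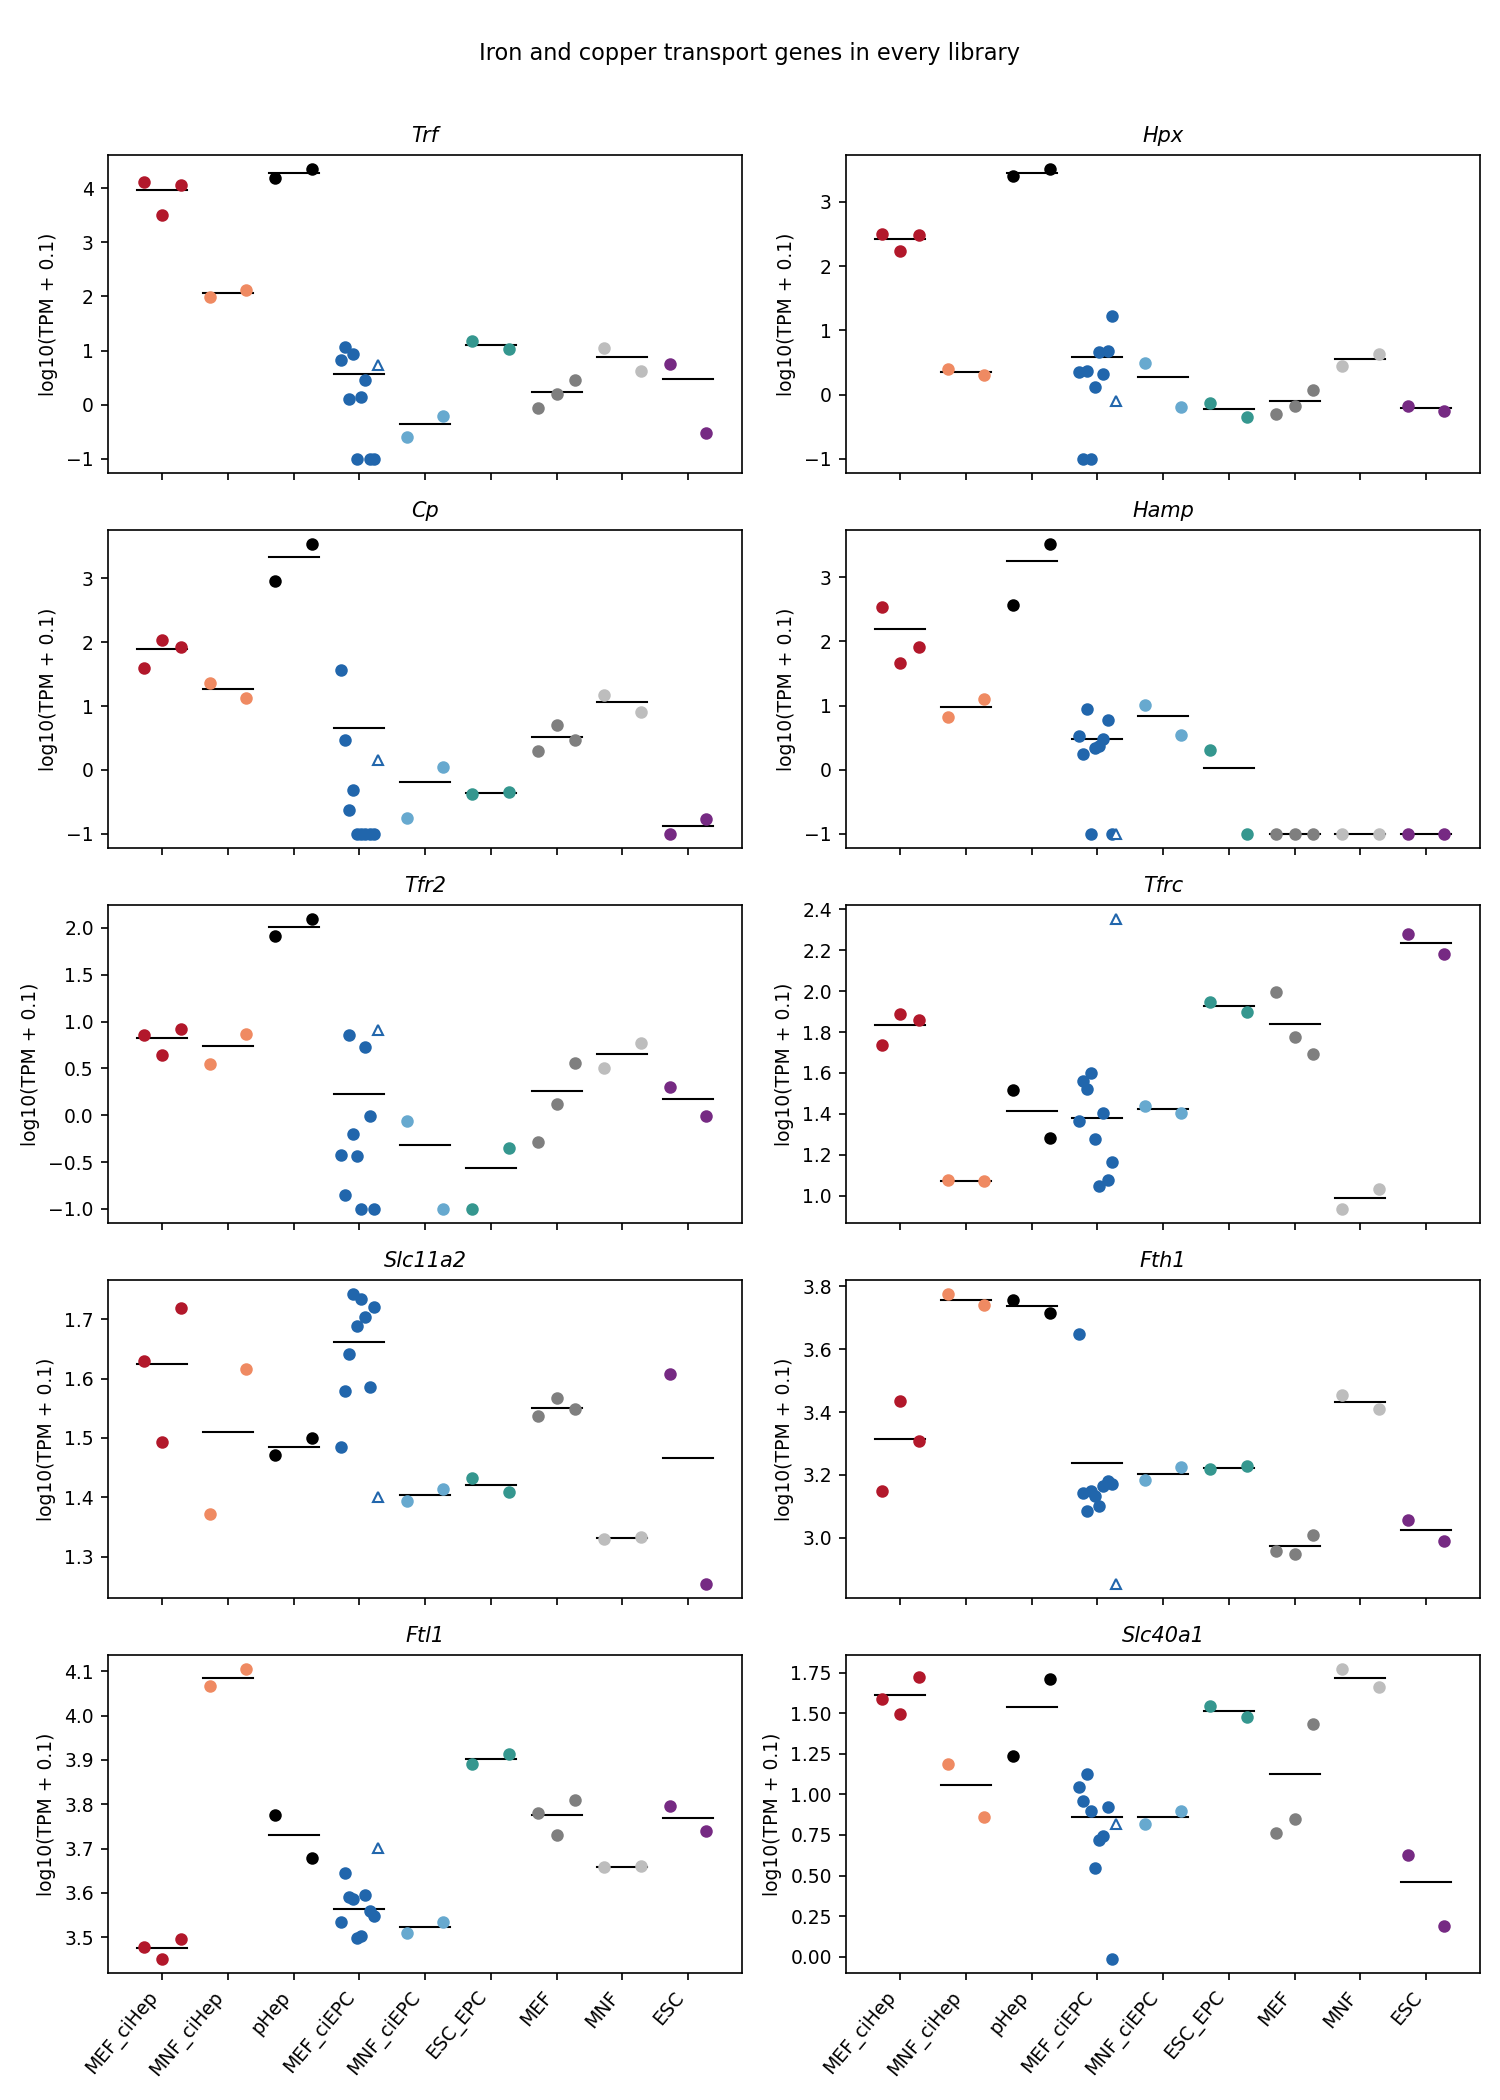
Level of each of the 10 genes as log10(TPM + 0.1) (vertical) in every library of the 9 groups (horizontal); each point is 1 library, lines are group means of TPM, and the open triangle is the library labelled MEF_ciEPC series 2 passage 22, which no mean includes. Trf, Hpx, Cp, Hamp and Tfr2 have their highest means in pHep and their next highest in MEF_ciHep, while Slc11a2 stays between 17.9 and 55.1 TPM in every library of the 9 groups.

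Most members moved at the step from progenitor to ciHep in the embryonic line. In MEF_ciHep against MEF_ciEPC, 7 of the 10 genes rose and 0 fell (adjusted p under 0.05 in edgeR's quasi-likelihood test and at least 2-fold), where 18.7% of the 16055 genes tested rose and 13.8% fell. At an unadjusted p under 0.05, 0 members fell, and DESeq2 and limma also called 0 lower. The members' median log2 change was 3.23, against −0.02 over all genes tested. In MNF_ciHep against MNF_ciEPC, 5 rose and 1 fell (20.2% and 11.0% of all genes), with a member median of 1.56 against 0.05 over all genes.

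Against adult hepatocytes, 1 gene was higher and 5 were lower in MEF_ciHep (15.5% and 11.2% of all genes), with a member median log2 difference of −1.27 against 0.01 over all genes. In MNF_ciHep against pHep, 0 were higher and 7 lower (19.0% and 13.7% of all genes), with a median of −3.76 against 0.11. Of the 10, 1 gene, Ftl1, was higher at an unadjusted p under 0.05 in edgeR but under 2-fold; DESeq2 called 0 higher, and limma with either pseudocount called 1, or 0 without a filter on low values. Between the ciHep groups, 6 were higher and 2 lower in MEF_ciHep than in MNF_ciHep (16.4% and 18.3% of all genes), with a median of 1.89 against −0.04. These comparisons share samples, so their counts do not add independent weight to one another.

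At the earlier steps 2 to 5 of the members were called. In MEF_ciEPC against MEF, 1 rose and 1 fell (17.1% and 16.9% of all genes), with a member median of −0.09 against 0.07. In MNF_ciEPC against MNF, 1 rose and 4 fell (18.6% and 22.2% of all genes), with a median of −1.30 against 0.00 over all genes. ESC_EPC against ESC gave 2 higher and 1 lower (18.9% and 15.3% of all genes), and MEF_ciEPC against ESC_EPC gave 1 higher and 2 lower (17.8% and 17.2%).

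**Figure D2:**
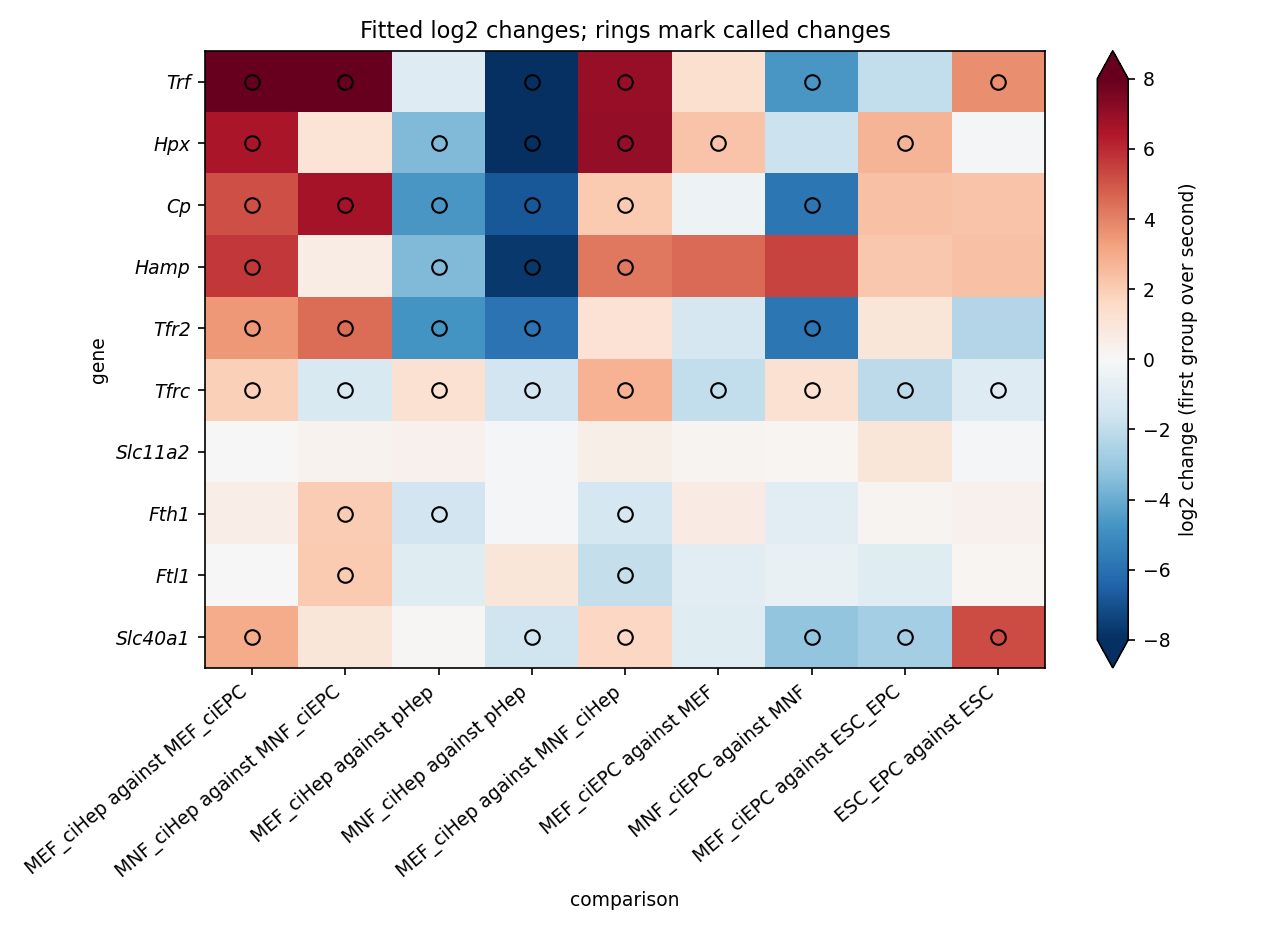
Log2 change of each gene in each comparison, with the cells named first on top of the ratio; colour gives the size and direction, capped at the ends of the scale, and rings show the changes called at an adjusted p under 0.05 and at least 2-fold. The column of MEF_ciHep against MEF_ciEPC holds 7 called increases and no called decrease, and the column of MNF_ciHep against pHep holds 7 called decreases.

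Transferrin was the most abundant of the 3 plasma carriers in MEF_ciHep, MNF_ciHep and pHep. Trf (ENSMUSG00000032554, GRCm38 chromosome 9, 103204001 to 103230444, minus strand) had 13035, 3153 and 11551 TPM in the MEF_ciHep libraries, 97.0 and 134 TPM in MNF_ciHep, and 15178 and 22064 TPM in pHep. The progenitors and starting cells held little: between 0 and 11.7 TPM with a median of 1.28 in MEF_ciEPC, 0.15 and 0.53 TPM in MNF_ciEPC, 14.9 and 10.6 TPM in ESC_EPC, 0.76, 1.45 and 2.75 TPM in MEF, 11.1 and 4.04 TPM in MNF, and 5.48 and 0.20 TPM in ESC. MEF_ciHep stood second in the order of means at 9246 ± 5329 TPM (SD, n = 3), below pHep at 18621 ± 4870 TPM (SD, n = 2) and above MNF_ciHep at 116 ± 26.2 TPM (SD, n = 2), and the ranges of these 3 groups did not overlap. From ESC_EPC down to MEF, each group's range overlapped that of the next group in the order.

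In MEF_ciHep the single gene Trf took 1.30%, 0.315% and 1.16% of all TPM, and in pHep 1.52% and 2.21%. Against MEF_ciEPC, Trf rose by a log2 change of 12.34 ± 1.07 (SE; edgeR adjusted p = 4.33e-07), and by 15.67 without MEF_ciEPC series 1 and 11.69 without series 2, the highest and lowest values with any 1 sample left out. MNF_ciEPC held 2 estimated counts of Trf over the group, so its change is given as a ratio of counts per total: Trf was 390.5-fold higher in MNF_ciHep than in MNF_ciEPC (exact 95% counting interval 107 to 3235, counting error only; edgeR adjusted p = 6.07e-05). The difference between MEF_ciHep and pHep, a log2 value of −1.02 ± 0.60, did not pass the test (edgeR adjusted p = 0.199). MNF_ciHep was lower than pHep by a log2 difference of −8.01 ± 0.90 (edgeR adjusted p = 6.37e-06), and MEF_ciHep was higher than MNF_ciHep by 6.99 ± 0.85 (edgeR adjusted p = 9.42e-06).

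At the earlier steps Trf had few counts. MNF_ciEPC held 28.7-fold less than MNF (exact 95% counting interval 7.57 to 246; edgeR adjusted p = 0.0126), and the call was lost without MNF replicate 1 (log2 change −3.44, edgeR adjusted p = 0.146), without MNF_ciEPC replicate 1 (−4.52, 0.0787) or without MNF_ciEPC replicate 2 (−4.67, 0.0667). Without MNF replicate 2 the Trf log2 change was −5.27. In ESC_EPC against ESC the log2 change was 3.71 ± 1.29 (edgeR adjusted p = 0.0277); it was 2.06 without ESC replicate 2 (adjusted p = 0.302) and 3.40 without ESC_EPC replicate 1 (adjusted p = 0.10), neither of them called, and 8.04 without ESC replicate 1.

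Haemopexin was higher in MEF_ciHep than in MNF_ciHep. Hpx (ENSMUSG00000030895, chromosome 7, 105591613 to 105600137, minus strand) had 312, 170 and 302 TPM in MEF_ciHep, 2.43 and 1.91 TPM in MNF_ciHep, and 2496 and 3177 TPM in pHep. MEF_ciEPC ran between 0 and 16.5 TPM with a median of 2.13, the highest being series 2 passage 10 and the other 8 libraries at or below 4.75 TPM. MNF_ciEPC had 3.04 and 0.54 TPM, ESC_EPC 0.65 and 0.35 TPM, MEF 0.40, 0.56 and 1.09 TPM, MNF 2.65 and 4.24 TPM, and ESC 0.57 and 0.46 TPM. MEF_ciHep lay below both pHep libraries and above every library of the other groups, while MNF_ciHep lay inside the range of MEF_ciEPC.

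Hpx rose in MEF_ciHep against MEF_ciEPC by a log2 change of 6.51 ± 0.53 (edgeR adjusted p = 2.57e-07), by 5.45 without MEF_ciEPC series 1, and by 8.07 without series 2, the lowest and highest values with any 1 sample left out. It was lower than in pHep by −3.53 ± 0.38 in MEF_ciHep (edgeR adjusted p = 3.46e-06) and by −10.54 ± 0.68 in MNF_ciHep (edgeR adjusted p = 5.79e-08). MEF_ciHep was higher than MNF_ciHep by 7.01 ± 0.63 (edgeR adjusted p = 6.2e-07). MNF_ciHep against MNF_ciEPC gave a log2 value of 1.07 ± 1.05 (edgeR adjusted p = 0.434). The Hpx difference of MEF_ciEPC from MEF, 2.29 ± 0.86 (edgeR adjusted p = 0.037), lost its call without MEF_ciEPC series 2 (0.75, adjusted p = 0.446) or without MEF replicate 1 (2.18, 0.0862), 2 (2.27, 0.10) or 3 (2.47, 0.0697), and was 3.36 without MEF_ciEPC series 1. ESC_EPC held 3 counts of Hpx over the group, and MEF_ciEPC was 5.85-fold higher (exact 95% counting interval 1.88 to 29.4; edgeR adjusted p = 0.0345); without ESC_EPC replicate 1 (edgeR adjusted p = 0.108), ESC_EPC replicate 2 (0.158) or MEF_ciEPC series 2 (0.297) it was not called, and without series 1 its log2 change was 3.76.

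Ceruloplasmin in MEF_ciHep lay above every progenitor library and below both adult ones. Cp (ENSMUSG00000003617, chromosome 3, 19957054 to 20009145, plus strand) had 38.9, 106 and 85.0 TPM in MEF_ciHep, 23.1 and 13.2 TPM in MNF_ciHep, and 915 and 3353 TPM in pHep. MEF_ciEPC series 1 passage 2 had 36.1 TPM, while the other 8 libraries lay between 0 and 2.79 TPM and the median over 9 was 0. MNF_ciEPC had 0.08 and 1.02 TPM, ESC_EPC 0.32 and 0.35 TPM, MEF 1.87, 4.86 and 2.85 TPM, MNF 14.6 and 8.01 TPM, and ESC 0 and 0.07 TPM. The ranges of MEF_ciHep, MNF_ciHep and pHep did not overlap, and MNF_ciHep overlapped MNF, the fibroblasts. The 6 fibroblast markers summed to 613 TPM in MEF_ciEPC series 1 passage 2, against 319 to 523 TPM in the other 8 libraries, and to 2586 and 1070 TPM in MNF_ciHep, against 589 and 479 TPM in MNF_ciEPC. Single markers went both ways in MNF_ciHep: Col1a1 ran from 203 to 412 TPM, against 0.33 to 0.34 TPM in MNF_ciEPC, and Pdgfra from 247 to 306 TPM, against 465.7 to 551 TPM in MNF_ciEPC. The sums were far higher in the fibroblasts, 9048 to 12442 TPM in MEF and 23570.0 to 25288 TPM in MNF, where mean Cp was below that of MNF_ciHep. Their part in the Cp values was not tested.

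Cp rose in MEF_ciHep against MEF_ciEPC by a log2 change of 5.13 ± 0.77 (edgeR adjusted p = 6.11e-05), ranging from 4.39 to 11.95 with 1 sample left out: it was 11.95 without MEF_ciEPC series 1 and 4.39 without series 2. MNF_ciEPC held 3 counts, and MNF_ciHep was 120.7-fold higher (exact 95% counting interval 40.4 to 590.5; edgeR adjusted p = 0.000443; log2 change 6.00 without MNF_ciHep replicate 1). Against pHep, Cp was lower by −4.68 ± 0.62 in MEF_ciHep (edgeR adjusted p = 2.85e-05; −3.71 without pHep replicate 2) and by −6.78 ± 0.83 in MNF_ciHep (edgeR adjusted p = 1.38e-05; −5.80 without pHep replicate 2). MEF_ciHep was higher than MNF_ciHep by 2.10 ± 0.67 (edgeR adjusted p = 0.0172), a call that was lost without MNF_ciHep replicate 2 (1.75, adjusted p = 0.111). MNF_ciEPC held 60.8-fold less Cp than MNF (exact 95% counting interval 20.4 to 298; edgeR adjusted p = 0.000964). Cp did not pass the test in MEF_ciEPC against MEF (−0.38 ± 0.79, edgeR adjusted p = 0.721), but was called lower without MEF_ciEPC series 1 (−7.19) and without its passage 2 library alone (−3.12).

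Hepcidin RNA was present in MEF_ciHep at levels that varied between libraries. Hamp (ENSMUSG00000050440, chromosome 7, 30942368 to 30944032, minus strand) had 347, 46.5 and 80.2 TPM in MEF_ciHep, 6.52 and 12.4 TPM in MNF_ciHep, and 362 and 3224 TPM in pHep. The progenitors had 0 to 8.61 TPM with a median of 2.25 in MEF_ciEPC, 9.97 and 3.42 TPM in MNF_ciEPC, and 1.90 and 0 TPM in ESC_EPC, and it was at 0 in all 7 libraries of MEF, MNF and ESC. All 3 MEF_ciHep libraries lay below both pHep libraries and above every other library, the highest being close to the lower pHep library, while MNF_ciHep overlapped MNF_ciEPC. The pHep libraries themselves differed widely.

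Hamp rose in MEF_ciHep against MEF_ciEPC by a log2 change of 5.67 ± 1.22 (edgeR adjusted p = 0.00228; 4.32 without MEF_ciHep replicate 1). It was lower than in pHep by −3.52 ± 0.81 in MEF_ciHep (edgeR adjusted p = 0.00501), but by −1.49 and not called without pHep replicate 2 (adjusted p = 0.194), by −4.86 without MEF_ciHep replicate 1 and by −4.34 without pHep replicate 1. MNF_ciHep was lower than pHep by −7.73 ± 1.34 (edgeR adjusted p = 0.00068; −8.52 without pHep replicate 1 and −5.70 without replicate 2). MEF_ciHep was higher than MNF_ciHep by 4.21 ± 1.36 (edgeR adjusted p = 0.0226), a call lost without MEF_ciHep replicate 1 (2.87, 0.066), MNF_ciHep replicate 1 (3.68, 0.162) or MNF_ciHep replicate 2 (4.57, 0.0698). MNF_ciHep and MNF_ciEPC held 8.02 and 13 counts over their groups, and their log2 difference of 0.58 did not pass the test (edgeR adjusted p = 0.848). Against fibroblasts with no count, the floor of 3 counts over the group gives at least 2.11-fold more Hamp in MEF_ciEPC than in MEF and at least 3.44-fold more in MNF_ciEPC than in MNF; neither difference passed the test (edgeR adjusted p = 0.384 and 0.295).

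Mice carry a neighbouring copy, Hamp2 (chromosome 7, 30922372 to 30924681, minus strand), 17686 bases from Hamp. Hamp2 had 186, 21.0 and 16.9 TPM in MEF_ciHep, which was 34.9%, 31.2% and 17.4% of the summed Hamp and Hamp2 TPM, and 0 and 11.97 TPM in MNF_ciHep. It was at 0 TPM in both pHep libraries, where Hamp was at its highest. The copies are close in sequence, and estimated counts can place reads on either, so the split between them is uncertain. The promoters are shown because the genes differed in pHep while their start regions are alike. Each line is 130 bases of the RefSeq GRCm38.p6 minus strand ending at the start site, chr7:30944030-30944159 for Hamp and chr7:30924182-30924311 for Hamp2, with the hexamer GGCGCC, known as a bone morphogenetic protein response element, and TTCTTGGAA, the form of a STAT site, in capitals.
Hamp promoter: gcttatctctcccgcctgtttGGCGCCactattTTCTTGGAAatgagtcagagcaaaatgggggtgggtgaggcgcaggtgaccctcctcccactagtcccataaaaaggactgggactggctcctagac
Hamp2 promoter: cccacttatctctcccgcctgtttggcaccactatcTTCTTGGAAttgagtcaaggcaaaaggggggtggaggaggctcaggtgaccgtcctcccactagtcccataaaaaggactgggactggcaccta
The windows end at RefSeq starts, whereas the gene spans given here are those of GENCODE. The Hamp2 window lies inside the GENCODE span of Hamp2, which starts further upstream at 30924681. The windows were identical at 115 of 133 aligned positions (86.5%). TTCTTGGAA lay 97 to 89 bases before the start in Hamp and 94 to 86 bases before it in Hamp2, and GGCGCC lay 109 to 104 bases before the start in Hamp and was not in the Hamp2 window, where no match says only that these letters are missing. In windows of the same length before the starts of all 32851 RefSeq promoters, searched on both strands, 6.37% held GGCGCC and 0.131% held TTCTTGGAA. Both motifs were set beforehand as known elements, so these shares do not measure how unlikely their presence here is.

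Tfrc, the receptor through which most cells take up iron-loaded transferrin, was highest in the stem cells. Tfrc (ENSMUSG00000022797, chromosome 16, 32608920 to 32632794, plus strand) had 54.3, 76.7 and 72.5 TPM in MEF_ciHep, 11.8 and 11.8 TPM in MNF_ciHep, and 32.8 and 19.1 TPM in pHep. MEF_ciEPC ran from 11.0 to 39.9 TPM with a median of 23.2, and the library labelled series 2 passage 22 had 224 TPM. MNF_ciEPC had 27.4 and 25.3 TPM, ESC_EPC 88.7 and 79.3 TPM, MEF 98.7, 59.3 and 49.4 TPM, MNF 8.54 and 10.7 TPM, and ESC 191 and 151 TPM. MEF_ciHep lay above every MEF_ciEPC, MNF_ciHep and pHep library and within the range of MEF. MEF_ciEPC and ESC_EPC lay below the cells that they came from, while MNF_ciEPC lay above MNF.

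Tfrc moved in opposite directions in the embryonic and neonatal lines. It fell in MEF_ciEPC against MEF by a log2 change of −1.99 ± 0.32 (edgeR adjusted p = 9.38e-05) and rose in MNF_ciEPC against MNF by 1.24 ± 0.35 (edgeR adjusted p = 0.00705). It then rose in MEF_ciHep against MEF_ciEPC by 1.93 ± 0.32 (edgeR adjusted p = 0.000146) and fell in MNF_ciHep against MNF_ciEPC by −1.199 ± 0.37 (edgeR adjusted p = 0.0156). The test of the difference between origins gave −3.23 ± 0.47 for the first step (edgeR adjusted p = 0.000488; −3.61 to −2.83 with 1 sample left out) and 3.13 ± 0.48 for the second (edgeR adjusted p = 0.000172; 2.90 to 3.54). The neonatal calls were less firm: that of the first step was lost without MNF replicate 1 (1.14, adjusted p = 0.0572) and that of the second without MNF_ciHep replicate 2 (−1.14, adjusted p = 0.0646). With the library labelled series 2 passage 22 added, the Tfrc changes were −0.94 for MEF_ciEPC against MEF (adjusted p = 0.0399) and 0.88 for MEF_ciHep against MEF_ciEPC (adjusted p = 0.0515), and neither was called.

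Against pHep, Tfrc was higher in MEF_ciHep by 1.205 ± 0.32 (edgeR adjusted p = 0.00762; 0.78 and not called without pHep replicate 2, adjusted p = 0.119) and lower in MNF_ciHep by −1.55 ± 0.38 (edgeR adjusted p = 0.00373; −0.96 and not called without pHep replicate 1, adjusted p = 0.0876). MEF_ciHep was higher than MNF_ciHep by 2.75 ± 0.36 (edgeR adjusted p = 1.69e-05). ESC_EPC was lower than ESC by −1.02 ± 0.33 (edgeR adjusted p = 0.0178), a call lost without ESC replicate 1 (−1.01, 0.0565), ESC replicate 2 (−1.06, 0.0586) or ESC_EPC replicate 2 (−0.92, 0.107). MEF_ciEPC was lower than ESC_EPC in Tfrc by −2.12 ± 0.34 (edgeR adjusted p = 0.000115).

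Tfr2, the second transferrin receptor, which hepatocytes use to sense iron-loaded transferrin, was highest in adult hepatocytes. Tfr2 (ENSMUSG00000029716, chromosome 5, 137569840 to 137587481, plus strand) had 7.16, 4.30 and 8.17 TPM in MEF_ciHep, 3.40 and 7.27 TPM in MNF_ciHep, and 81.0 and 123 TPM in pHep. It was between 0 and 7.10 TPM with a median of 0.28 in MEF_ciEPC, at 0.76 and 0 TPM in MNF_ciEPC, 0 and 0.35 TPM in ESC_EPC, 0.42, 1.23 and 3.53 TPM in MEF, 3.06 and 5.77 TPM in MNF, and 1.92 and 0.88 TPM in ESC. MEF_ciHep and MNF_ciHep overlapped each other and their fibroblast or progenitor ranges, and pHep lay apart above all.

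Tfr2 rose in MEF_ciHep against MEF_ciEPC by a log2 change of 3.49 ± 0.59 (edgeR adjusted p = 0.000167), although the TPM ranges of the single libraries overlapped. MEF_ciEPC held only 10.99 estimated counts over the group. Mean TPM were 6.54 in MEF_ciHep and 1.60 in MEF_ciEPC, a smaller ratio than the fitted change gives. In MNF_ciHep Tfr2 was at least 9.85-fold higher than in MNF_ciEPC, whose 0.87 counts lie under the floor of 3 (edgeR adjusted p = 0.00361); its log2 change was 6.49 without MNF_ciEPC replicate 1 and 3.67 without replicate 2. It was lower than in pHep by −4.78 ± 0.43 in MEF_ciHep (edgeR adjusted p = 7.3e-07) and by −5.92 ± 0.58 in MNF_ciHep (edgeR adjusted p = 1.69e-06). The difference between MEF_ciHep and MNF_ciHep did not pass the test (1.15 ± 0.59, edgeR adjusted p = 0.124). In estimated counts set against the floor of 3, MNF_ciEPC held at least 24.3-fold less Tfr2 than MNF (edgeR adjusted p = 3.93e-05). Mean TPM were 0.38 in MNF_ciEPC and 4.415 in MNF, a smaller ratio, so that floor is no lower bound for TPM. The log2 change was −7.82 without MNF_ciEPC replicate 1, −5.0001 without MNF_ciEPC replicate 2 and −5.02 without MNF replicate 2.

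Slc11a2, which carries ferrous iron out of the endosome into the cytoplasm, had the narrowest range of group means among the 10 genes. Slc11a2 (ENSMUSG00000023030, chromosome 15, 100387898 to 100425072, minus strand) had 42.6, 31.0 and 52.3 TPM in MEF_ciHep, 23.4 and 41.1 TPM in MNF_ciHep, and 29.4 and 31.5 TPM in pHep. MEF_ciEPC ran from 30.4 to 55.1 TPM with a median of 48.7, MNF_ciEPC had 24.7 and 25.8 TPM, ESC_EPC 27.0 and 25.5 TPM, MEF 34.3, 36.8 and 35.2 TPM, MNF 21.3 and 21.4 TPM, and ESC 40.4 and 17.9 TPM. The highest group mean was 2.14 times the lowest, and neighbouring groups in the order overlapped except MNF_ciEPC and MNF, the lowest 2. It was called in none of the 9 group comparisons, with log2 values between −0.10 and 0.95, the largest being MEF_ciEPC against ESC_EPC (0.95 ± 0.20, edgeR adjusted p = 0.000926, under 2-fold).

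The ferritin chains stood at 712 TPM or more in every library, and the highest group means of both were in MNF_ciHep. Fth1 (ENSMUSG00000024661, chromosome 19, 9980598 to 9985098, plus strand), the chain that oxidizes iron as it enters the cage, had 1407, 2732 and 2038 TPM in MEF_ciHep, 5954 and 5506 TPM in MNF_ciHep, and 5729 and 5191 TPM in pHep. In MEF_ciEPC it was 4443 TPM at series 1 passage 2 and between 1219 and 1519 TPM in the other 8 libraries, and 712 TPM in the library labelled series 2 passage 22. MNF_ciEPC had 1521 and 1675 TPM, ESC_EPC 1657 and 1685 TPM, MEF 906, 887 and 1023 TPM, MNF 2839 and 2568 TPM, and ESC 1142 and 973 TPM. MNF_ciHep overlapped pHep, and both lay above every other library of Fth1.

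Ftl1 (ENSMUSG00000050708, chromosome 7, 45457944 to 45459884, minus strand), the light chain that helps form the iron core, had 3007, 2828 and 3133 TPM in MEF_ciHep, 11646 and 12709 TPM in MNF_ciHep, and 5960 and 4772 TPM in pHep. MEF_ciEPC ran from 3156 to 4418 TPM with a median of 3627, and the library labelled series 2 passage 22 had 5021 TPM. MNF_ciEPC had 3231 and 3425 TPM, ESC_EPC 7770 and 8201 TPM, MEF 6045, 5369 and 6459 TPM, MNF 4555 and 4573 TPM, and ESC 6243 and 5489 TPM. MNF_ciHep lay above and MEF_ciHep below every other library of the 9 groups. Together the chains took 0.441% to 0.556% of all TPM in MEF_ciHep, 1.76% and 1.82% in MNF_ciHep, and 1.17% and 0.996% in pHep.

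Both chains rose in MNF_ciHep against MNF_ciEPC, Fth1 by a log2 change of 2.05 ± 0.24 (edgeR adjusted p = 1.16e-05) and Ftl1 by 2.08 ± 0.22 (edgeR adjusted p = 4.88e-06). Neither was called in MEF_ciHep against MEF_ciEPC: Fth1 changed by 0.55 ± 0.22 (edgeR adjusted p = 0.045, under 2-fold) and Ftl1 by −0.05 ± 0.19 (edgeR adjusted p = 0.878). The difference between origins passed the test for both, at −1.49 ± 0.32 for Fth1 (edgeR adjusted p = 0.00197; −1.67 to −1.30 with 1 sample left out) and −2.12 ± 0.29 for Ftl1 (edgeR adjusted p = 6.05e-05; −2.17 to −2.01). Directly compared, MEF_ciHep was lower than MNF_ciHep by −1.39 ± 0.21 in Fth1 (edgeR adjusted p = 6.51e-05) and by −1.93 ± 0.19 in Ftl1 (edgeR adjusted p = 1.5e-06). MEF_ciHep was lower than pHep in Fth1 by −1.51 ± 0.21 (edgeR adjusted p = 4.2e-05), while the Fth1 difference of MNF_ciHep from pHep was −0.12 ± 0.23 (edgeR adjusted p = 0.709).

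For Ftl1, the differences from pHep were near the 2-fold line: −0.94 ± 0.19 in MEF_ciHep (edgeR adjusted p = 0.00115) and 0.99 ± 0.21 in MNF_ciHep (edgeR adjusted p = 0.00173), neither called. Ftl1 was called in MEF_ciHep without pHep replicate 2 (−1.26), and in MNF_ciHep without MNF_ciHep replicate 1 (1.03) or pHep replicate 1 (1.36). At the first step the ferritin changes were all under 2-fold. Fth1 differed by 0.66 ± 0.21 in MEF_ciEPC against MEF (edgeR adjusted p = 0.0165) and by −0.89 ± 0.24 in MNF_ciEPC against MNF (edgeR adjusted p = 0.00459), and the difference between these, 1.55 ± 0.32, passed the test (edgeR adjusted p = 0.0037; 1.43 to 1.64 with 1 sample left out). Ftl1 differed by −0.86 ± 0.20 and −0.60 ± 0.21 in the same comparisons (edgeR adjusted p = 0.00209 and 0.0272).

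The balance of the chains differed between groups. The ratio of Fth1 to Ftl1 TPM was 0.468, 0.966 and 0.651 in MEF_ciHep, 0.511 and 0.433 in MNF_ciHep, and 0.961 and 1.09 in pHep. It was 0.313 to 1.30 with a median of 0.394 in MEF_ciEPC, 0.471 and 0.489 in MNF_ciEPC, 0.213 and 0.205 in ESC_EPC, 0.1499 to 0.165 in MEF, 0.623 and 0.562 in MNF, and 0.177 and 0.183 in ESC. The light chain led in every group except pHep, where the ratio lay on either side of 1, and except MEF_ciEPC series 1 passage 2. The near copies Fthl17a to Fthl17f and Ftl1-ps1 took at most 0.384% of ferritin TPM in the libraries used, and 2.77% in the library labelled series 2 passage 22; reads that fit a chain and its copy could be split between them, so small differences are uncertain.

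**Figure D3:**
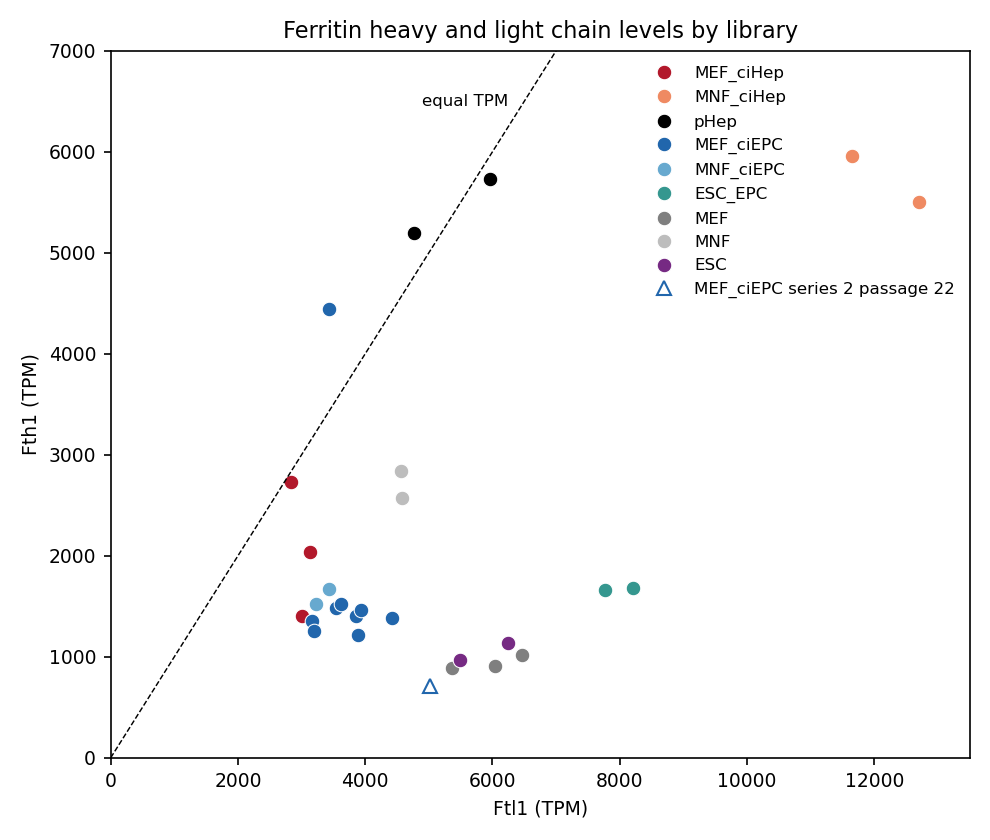
Fth1 TPM (vertical) against Ftl1 TPM (horizontal) in every library, coloured by group, on linear axes; the dashed line marks equal TPM and the open triangle is the library labelled MEF_ciEPC series 2 passage 22. MNF_ciHep lies at the far right with 11646 and 12709 TPM of Ftl1, the pHep points lie on either side of the line, and MEF has the lowest ratios among the libraries used, 0.1499 to 0.165.

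Ferroportin, the only known cellular iron exporter, had its highest group mean in MNF. Slc40a1 (ENSMUSG00000025993, chromosome 1, 45908068 to 45926523, minus strand) had 38.5, 31.0 and 53.0 TPM in MEF_ciHep, 15.4 and 7.12 TPM in MNF_ciHep, and 17.2 and 51.2 TPM in pHep. MEF_ciEPC ran from 0.87 to 13.2 TPM with a median of 7.74, MNF_ciEPC had 6.48 and 7.78 TPM, ESC_EPC 34.8 and 29.98 TPM, MEF 5.71, 6.97 and 26.8 TPM, MNF 58.7 and 45.6 TPM, and ESC 4.14 and 1.44 TPM. MEF_ciHep lay above all MEF_ciEPC libraries and overlapped pHep, ESC_EPC and MNF. Macrophages also express ferroportin: the 8 macrophage markers summed to 36.2 to 108 TPM in MEF_ciHep, 43.9 to 130 TPM in MNF_ciHep, 98.3 to 106 TPM in pHep, 11.9 to 49.7 TPM in MEF_ciEPC, 14.5 to 19.7 TPM in MNF_ciEPC, 123 to 131 TPM in ESC_EPC, 14.9 to 20.7 TPM in MEF, 8.38 to 14.9 TPM in MNF and 24.0 to 25.3 TPM in ESC. MNF, the highest group in Slc40a1, had the lowest marker sums, of which Cd68 made up 5.81 to 10.9 TPM. Single markers went both ways. Csf1r was at 2.02 to 3.06 TPM in MNF against 24.4 to 75.4 TPM in MEF_ciHep. Adgre1 was at 0.55 to 0.79 TPM in MNF, 1.08 to 1.89 TPM in MEF and 0.21 to 5.04 TPM in pHep, and at 0 in every other group. In ESC_EPC, Cd68 alone made up 123 to 131 TPM and 6 of the 8 markers were at 0, and the Kupffer cell marker Clec4f was at 0 in every group but pHep. Their part in the Slc40a1 values was not tested.

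Slc40a1 rose in MEF_ciHep against MEF_ciEPC by a log2 change of 2.96 ± 0.48 (edgeR adjusted p = 0.000121; 2.61 to 3.22 with 1 sample left out). MNF_ciHep against MNF_ciEPC gave 0.94 ± 0.53 (edgeR adjusted p = 0.17), and the difference between origins was 2.03 ± 0.70 (edgeR adjusted p = 0.0352). That difference lost its call without MEF_ciEPC series 1 (2.28) or series 2 (1.91), MEF_ciHep replicate 3 (1.69), MNF_ciEPC replicate 2 (1.58) or MNF_ciHep replicate 2 (1.62), and was 2.81 without MNF_ciHep replicate 1. MEF_ciHep did not differ from pHep past the test (0.10 ± 0.43, edgeR adjusted p = 0.90), while MNF_ciHep was lower by −1.59 ± 0.51 (edgeR adjusted p = 0.0205), a call lost without MNF_ciHep replicate 2 (−1.17, 0.141) or pHep replicate 2 (−1.18, 0.136); without MNF_ciHep replicate 1 it was −2.36. MEF_ciHep was higher than MNF_ciHep by 1.69 ± 0.48 (edgeR adjusted p = 0.00875), but by 1.26 and not called without MNF_ciHep replicate 2 (adjusted p = 0.088), and by 2.46 without replicate 1.

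Among the progenitors, Slc40a1 fell in MNF_ciEPC against MNF by −3.16 ± 0.51 (edgeR adjusted p = 7.83e-05) and rose in ESC_EPC against ESC by 5.22 ± 0.68 (edgeR adjusted p = 2.18e-05). MEF_ciEPC was lower than ESC_EPC by −2.69 ± 0.50 (edgeR adjusted p = 0.000385). The change in MEF_ciEPC against MEF, −0.96 ± 0.47, did not pass the test (edgeR adjusted p = 0.105), and was called without MEF replicate 1 (−1.30, adjusted p = 0.0265).

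Set against the mean of pHep, the mean levels of the members in MEF_ciHep ran from a few percent to above the adult mean. Slc40a1 (119.6%), Slc11a2 (138%) and Tfrc (262%) were above the adult mean, although 1 library of Slc40a1 stood at 90.7%. Ftl1 was at 55.7%, Trf at 49.7% and Fth1 at 37.7%, and Hpx was at 9.21%, Hamp at 8.80%, Tfr2 at 6.42% and Cp at 3.60%. The single libraries cross this order: Trf was at 16.9% in MEF_ciHep replicate 2, and Hamp at 19.3% in replicate 1. MNF_ciHep had 0.620% of the pHep mean for Trf, 0.0765% for Hpx, 0.528% for Hamp, 0.850% for Cp and 5.23% for Tfr2, but 105% for Fth1 and 227% for Ftl1. The pHep mean rests on 2 libraries, which differed widely in Hamp, Cp and Slc40a1. The fibroblast markers summed to 5.3 TPM in pHep replicate 1 and 133 TPM in replicate 2, and the hepatocyte markers to 27555 and 14459 TPM. The part of these differences in the member values was not tested.

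**Figure D4:**
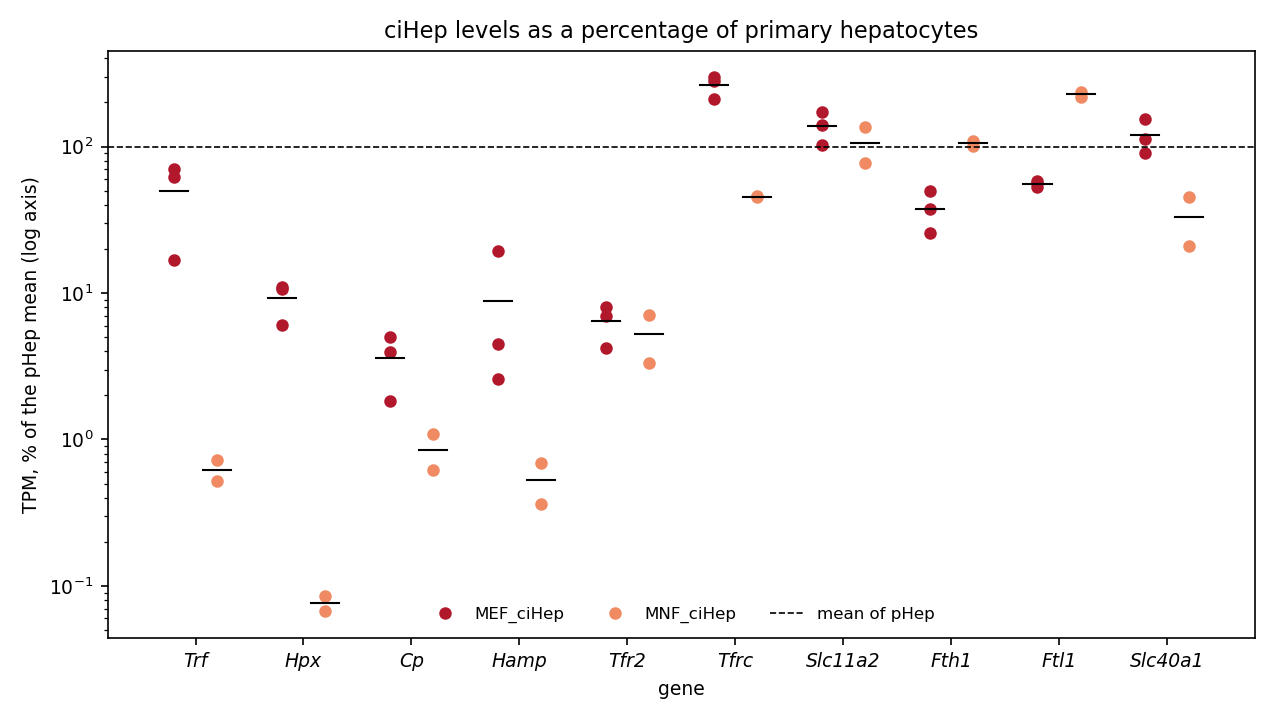
Level of each gene as a percent of the mean TPM of pHep (log axis), with each library of MEF_ciHep and MNF_ciHep as a point, their means as short lines and the pHep mean as the dashed line. MEF_ciHep lies far above MNF_ciHep for Trf (49.7% against 0.620% in the means) and Hpx (9.21% against 0.0765%), and below it for Fth1 (37.7% against 105%) and Ftl1 (55.7% against 227%).

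The change from fibroblast to progenitor also differed between origins. In the test of the change in the embryonic line minus the change in the neonatal line, 6 members were higher and 1 was lower (9.04% and 6.87% of all genes), with a member median of 1.87 against 0.14 over all genes. Tfrc (−3.23) and Fth1 (1.55), given above, kept their calls whichever sample was left out. For Trf (5.91 ± 1.88, edgeR adjusted p = 0.0376), Tfr2 (4.43 ± 1.27, 0.0231), Slc40a1 (2.20 ± 0.67, 0.0318), Hpx (4.01 ± 1.196, 0.028) and Cp (5.40 ± 1.56, 0.0239) the call was lost in 4 or more of the 9 fits that left out 1 sample. Trf lost it without any 1 of the MEF or MNF_ciEPC libraries, MEF_ciEPC series 1 or MNF replicate 1 (range 2.52 to 6.55), and Tfr2 without either MNF_ciEPC library, MEF_ciEPC series 1 or MNF replicate 2 (3.64 to 6.49). Slc40a1 lost it without either MNF library, MEF replicate 1 or 2, MEF_ciEPC series 1 or MNF_ciEPC replicate 1 (1.82 to 2.73). Hpx lost it without MEF replicate 1 or 2, MEF_ciEPC series 2, MNF replicate 2 or MNF_ciEPC replicate 2 (2.44 to 5.04). Cp lost it without MNF replicate 1 or either MNF_ciEPC library, and turned to −1.48 without MEF_ciEPC series 1 (up to 6.14 without series 2). For the step from progenitor to ciHep, 3 members were higher and 2 lower (11.7% and 16.7% of all genes), with a median of 0.88 against −0.14 over all genes: Tfrc (3.13), Slc40a1 (2.03), Fth1 (−1.49) and Ftl1 (−2.12), given above, and Hpx at 5.44 ± 1.26 (edgeR adjusted p = 0.00378; 4.43 and not called without MNF_ciEPC replicate 1, adjusted p = 0.174; 4.44 without MEF_ciEPC series 1 and 7.03 without series 2). Trf, Hamp, Tfr2, Cp and Slc11a2 did not pass that test (edgeR adjusted p between 0.124 and 0.583), and a p that misses the threshold does not show that the origins changed alike.

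Passage number had no called effect. The passages of 1 culture line are not independent, so p here measures only the spread of libraries around the slope. Above passage 10 the slope rests on 1 library, series 1 passage 22. Over the 9 MEF_ciEPC libraries, with series as a term, 0 of the 6 members that passed the filter were called, where 0.123% of 12190 genes were called with a rising slope and 0.287% with a falling one. At an unadjusted p under 0.05, 2 members had a slope: Tfrc changed by −0.34 ± 0.11 on the log2 scale per doubling of passage (p = 0.01, edgeR adjusted p = 0.171) and Slc40a1 by −0.50 ± 0.17 (p = 0.0123, adjusted p = 0.185). Tfrc was called without the passage 2 library of series 1 (−0.43, adjusted p = 0.0457). In series 1 its TPM were 23.2, 36.1, 33.3, 39.9, 18.9 and 11.0 at passages 2, 3, 4, 6, 10 and 22, and in series 2 they were 25.2, 11.9 and 14.6 at passages 1, 5 and 10. Tfr2, Hamp, Hpx and Cp were too low for the fit.

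**Figure D5:**
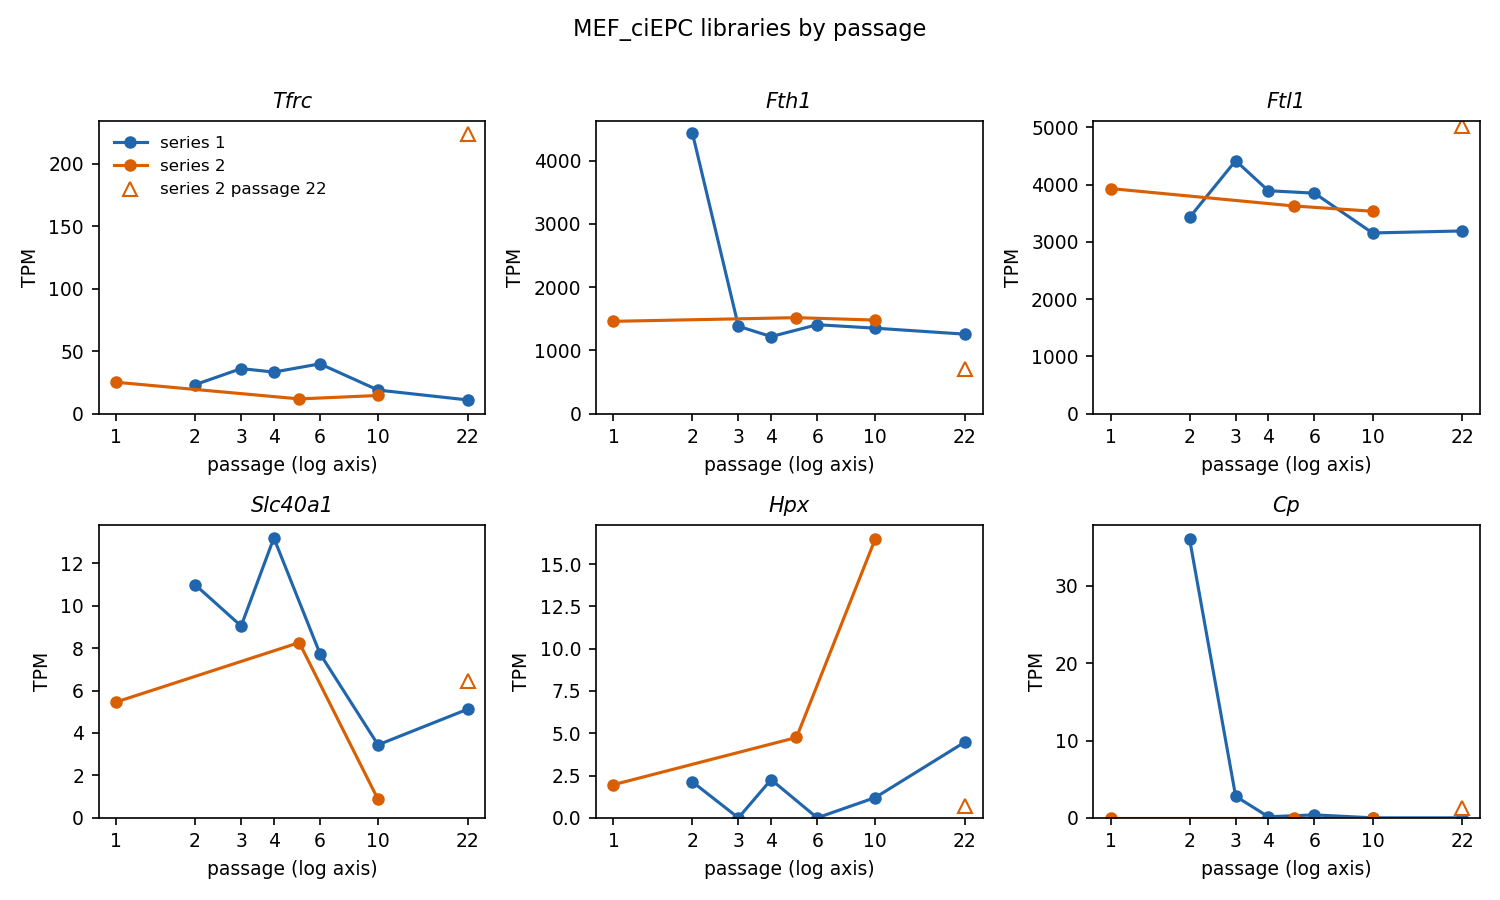
TPM (linear axis) of Tfrc, Fth1, Ftl1, Slc40a1, Hpx and Cp against passage number (log axis) in the MEF_ciEPC libraries of series 1 and series 2, with the library labelled series 2 passage 22 as an open triangle. Tfrc is lowest at series 1 passage 22 with 11.0 TPM, whereas the library labelled series 2 passage 22 has 224 TPM.

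Around the members, other genes of iron and copper handling were counted by list. Shares of all genes called stand above: 18.7% higher and 13.8% lower for MEF_ciHep against MEF_ciEPC, and 20.2% and 11.0% for MNF_ciHep against MNF_ciEPC. Ranges in brackets give the lowest and highest count over the alternatives run. Of 13 genes for iron uptake and haem scavenging, 5 rose (4 to 10) and 0 fell (0 to 1) in MEF_ciHep against MEF_ciEPC, led by Hp, the haemoglobin-binding haptoglobin, at 779 ± 203 TPM against 0.761 ± 1.08 TPM (SD, n = 3 and 2 series; edgeR adjusted p = 5.58e-07). In MNF_ciHep against MNF_ciEPC, 10 rose (8 to 11) and 1 fell, where 2 had risen and 7 fallen in MNF_ciEPC against MNF. Among the 10 were Lrp1, the receptor that clears haemopexin bound to haem, at 745 ± 169 TPM against 4.93 ± 2.02 TPM (edgeR adjusted p = 1.64e-07) and at 894 ± 44.6 TPM in MNF, and Lcn2, which binds iron-loaded siderophores, at 636 ± 317 TPM against 0 TPM in both MNF_ciEPC libraries (edgeR adjusted p = 9.02e-06). The fibroblast markers that were higher in MNF_ciHep than in MNF_ciEPC, given above, moved with this list, and their part in it was not tested. Against pHep the list gave 3 higher (1 to 3) and 8 lower (7 to 9) in MEF_ciHep, and 2 higher (2 to 4) and 5 lower (3 to 5) in MNF_ciHep, where 15.5% and 11.2% of all genes were called for MEF_ciHep and 19.0% and 13.7% for MNF_ciHep. Slc39a14, a zinc and iron importer of the liver, was lower in both, at 37.1 ± 12.7 TPM in MEF_ciHep and 19.4 ± 2.52 TPM in MNF_ciHep against 178 ± 14.9 TPM in pHep (edgeR adjusted p = 1.65e-06 and 1.93e-06).

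Of 7 tested genes for iron storage, export and reduction, 2 rose (2 to 3) and 0 fell (0 to 2) in MEF_ciHep against MEF_ciEPC, Cybrd1, a ferric reductase, standing at 88.1 ± 17.9 TPM against 9.21 ± 3.79 TPM (edgeR adjusted p = 4.12e-05), and 1 rose (1 to 3) and 0 fell (0 to 1) in MNF_ciHep against MNF_ciEPC. Against pHep, 2 of these genes were higher (1 to 2) and 1 lower in MEF_ciHep (15.5% and 11.2% of all genes). Cybrd1 was above the adult level, by a log2 difference of 7.32. Of 18 genes for iron sensing and hepcidin control, 5 rose (2 to 7) and 1 fell (1 to 2) in MEF_ciHep and 7 rose (5 to 8) and 2 fell (1 to 4) in MNF_ciHep against their progenitors. Tmprss6, a liver protease that holds down hepcidin, was far below the adult level, at 1.43 ± 0.170 TPM in MEF_ciHep and 0.715 ± 0.488 TPM in MNF_ciHep against 107 ± 55.8 TPM in pHep (edgeR adjusted p = 1.51e-07 and 4.55e-07). Of 9 tested genes for haem synthesis, transport and breakdown, 2 rose (1 to 2) in MEF_ciHep and 3 rose (2 to 6) in MNF_ciHep against their progenitors, with 0 lower in both; Hmox1, which breaks down haem, was at 358 ± 39.9 TPM in MNF_ciHep against 114 ± 21.6 TPM in MNF_ciEPC (edgeR adjusted p = 0.000566).

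Of 12 tested genes for copper transport and its chaperones, 5 rose (4 to 6) and 1 fell in MEF_ciHep against MEF_ciEPC, where Atp7a, a copper-pumping ATPase, was at 81.2 ± 22.2 TPM against 11.9 ± 0.832 TPM (edgeR adjusted p = 1.36e-07) and Slc31a2, a copper transporter, at 68.1 ± 2.09 TPM against 19.8 ± 1.52 TPM (edgeR adjusted p = 4.27e-06). In MNF_ciHep against MNF_ciEPC 1 rose (1 to 2) and 2 fell (2 to 3), including Atp7b, the ATPase that loads copper onto ceruloplasmin in hepatocytes, at 0.595 ± 0.629 TPM against 17.2 ± 0.530 TPM (edgeR adjusted p = 6.13e-06). Atp7b was at 35.4 ± 6.96 TPM in MEF_ciHep, higher than in MNF_ciHep (edgeR adjusted p = 3.22e-07). Against pHep, the copper list gave 4 higher (3 to 4) and 1 lower (1 to 2) in MEF_ciHep, where 15.5% and 11.2% of all genes were called. Among the 4 were Atp7a, by a log2 difference of 2.85, and Slc31a2, by 1.37, so both stood above the adult level. All 5 lists were chosen with earlier results of these data known, and the calls of the genes named here held under every alternative run for them.

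The genes whose pattern over the 20 samples of the fit was most like a member's were found by Pearson correlation of log2(TPM + 1), among 13300 genes with a group mean of at least 10 TPM somewhere; the samples share groups and the values describe rather than test. Trf was closest to the fibrinogen chain gene Fgg (0.982), to Kng1 (0.974) and to Fgb (0.973). Hpx was closest to Serpina1a (0.980), Alb (0.975) and Cldn2 (0.975), Hamp to Onecut1 (0.966), Apob (0.957) and Gc (0.957), and Cp to Aldh1a1 (0.974), Akr1c14 (0.960) and Apol9b (0.955). Tfr2 was closest to Kynu (0.923), Fgl1 (0.923) and Tmprss6 (0.918). The closest genes of the other members were Vwa5a with Slc40a1 (0.938), Slpi with Fth1 (0.913), Etv1 with Ftl1 (0.884), Cnbp with Tfrc (0.871) and Creld2 with Slc11a2 (0.752).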

How the data were processed

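The authors deposited estimated counts and TPM per gene; RSEM 1.2.4 and mm10 are named in the submitters' processing notes, while neither an aligner nor an annotation release is given in the sources used here. Per the labels' protocols, Trizol served for the RNA and a TruSeq kit for the libraries. Levels are the authors' deposited TPM, which are scaled for gene length. The deposited expected counts were rounded to whole numbers and the passages of each MEF_ciEPC series were summed, which gave 20 samples in 9 groups; the library labelled series 2 passage 22 was left out, since it was known to stand close to ESC. One edgeR 4.0.16 quasi-likelihood fit (R 4.3.3, TMM scaling, filterByExpr minimum count 10) gave every group comparison, with a call needing 2-fold or more and a Benjamini-Hochberg adjusted p under 0.05 over the 16055 genes tested; the passage slope had no fold minimum. SE is the log2 change divided by the root of the F statistic. The common biological coefficient of variation was 0.229.

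On simulated counts, the test recovered 60 of 68 genes set to a log2 change of 2 in MEF_ciHep against MEF_ciEPC, and 16 of 58 set to 1, with 7 false calls over 15110 genes. The changed genes were drawn from those above a minimum mean count, with the same starting mean in every group. These rates therefore do not carry over to members near 0 counts in a group. At a log2 change of 1, the 2-fold minimum itself limits recovery. Groups with 3 or fewer counts are given as ratios with an exact 95% interval or against a floor of 3 counts, for counting error only. The alternatives were DESeq2 1.42.0 and limma 3.58.1 on log2(TPM + 1) or log2(TPM + 0.1), another scaling, other filters, the replicate number as a block, and each sample left out.

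The 10 members and the gene and marker lists were chosen with earlier results of these data known, and support nothing by their choice. Named genes are the members, their near copies, at most 3 called genes with the smallest adjusted p per list and comparison, and the 3 genes most correlated with each member. Atp7b, Hmox1, Tmprss6, Slc39a14, Cybrd1, Hp, Lrp1, Lcn2, Atp7a and Slc31a2 are such list genes; Flvcr1 and Flvcr2 of the haem list are not in the tables used here.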

Additional observations from a re-analysis of the deposited data

Results flagged for a closer look

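Among the 10 libraries labelled MEF_ciEPC, Dixon's test found a library far from the others for 4 of the 10 genes. Its nominal rate of about 1 in 20 groups holds for independent, normally distributed values. Passages of 1 culture series are not independent, and some of these genes lie near 0 TPM. The rate therefore does not apply here, and the flags only describe. Tfrc stood at 223.58 TPM in series 2 passage 22, where the other 9 libraries lay between 11.0 and 39.9 TPM. Fth1 stood at 4443.44 TPM in series 1 passage 2, against 712 to 1519 TPM in the others, and Cp at 36.08 TPM in the same library, against at most 2.79 TPM in the others. Hpx stood at 16.49 TPM in series 2 passage 10, against at most 4.75 TPM in the others.

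The change between steps differed between the embryonic and the neonatal line by a test of the difference itself (edgeR, adjusted p under 0.05 and at least 2-fold). For the step from fibroblast to progenitor, the log2 change in the embryonic line minus that in the neonatal line was 5.91 for Trf, −3.23 for Tfrc, 4.43 for Tfr2, 1.55 for Fth1, 2.20 for Slc40a1, 4.01 for Hpx and 5.40 for Cp. With 1 sample left out, Trf, Tfr2, Slc40a1, Hpx and Cp each lost the call in 4 or more of 9 fits, and Cp turned to −1.48 without MEF_ciEPC series 1. For the step from progenitor to ciHep it was 3.13 for Tfrc, −1.49 for Fth1, −2.12 for Ftl1, 2.03 for Slc40a1 and 5.44 for Hpx. Of these, Slc40a1 lost its call in 5 of 9 fits and Hpx without MNF_ciEPC replicate 1. Strain background and culture line go with origin in both steps and cannot be told apart from it.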

How the results depend on the processing

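Over 1915 alternatives of the members' changes, 1775 kept their side of the threshold, of which 63 were uncalled in both fits with another sign, 97 lost a call, 42 gained one and 1 reversed, the difference between origins for Cp at the first step (5.40, but −1.48 without MEF_ciEPC series 1; up to 6.14 without series 2); the causes were not tested. Of 2551 alternatives for the list genes chosen by rule, 2444 kept the call and 107 lost it. With the replicate block, Hamp in MEF_ciHep against pHep was −3.24 (edgeR adjusted p = 0.0566) and Slc40a1 in the difference between origins at the second step 1.57 (0.0533), neither called. Of 73 pairs of same-numbered samples between groups, 0 correlated above 0.1 in their deviations from the group means (−0.163 to 0.072). In groups of 2 samples the deviations mirror each other, so the pairs are not independent. Whether same-numbered samples share a culture or an animal was not tested. With only the compared groups in the fit, Hamp in MEF_ciHep against pHep was −3.50 (0.0508).

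Counts of members called higher moved by over 1.5 times as follows. In ESC_EPC against ESC, 2 became 1 under limma on log2(TPM + 1) without a filter, and 1 to 2 with a library left out. In MEF_ciEPC against ESC_EPC, 1 became 0 with the 9 libraries as separate samples or with only the compared groups, 2 under limma on log2(TPM + 0.1) or with no fold minimum, 3 with no low-count filter, and 0 to 1 with a sample left out. In MEF_ciEPC against MEF, 1 became 0 with the 9 libraries separate or with only the compared groups, 2 under limma on log2(TPM + 0.1) or with no fold minimum, and 0 to 1 with a sample left out. In MNF_ciEPC against MNF, 1 became 2 under DESeq2 and under limma with either pseudocount, and 0 to 1 with a library left out. In MNF_ciHep against pHep, 0 became 1 under limma with either pseudocount, with no fold minimum or no low-count filter, and 0 to 1 with a library left out. The 6 in MEF_ciHep against MNF_ciHep became 3 to 6, and the 1 in MEF_ciHep against pHep 0 to 1, with a library left out. In the difference between origins at the first step, 6 became 2 under limma with either pseudocount, 1 under limma without a filter, and 2 to 5 with a sample left out.

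Counts called lower moved by over 1.5 times in 4 comparisons. In ESC_EPC against ESC, 1 became 0 with no low-count filter and 0 to 1 with a library left out. In MEF_ciEPC against MEF, 1 became 2 with no fold minimum or without series 1 passage 2, 0 with series 2 passage 22 added, and 1 to 2 with a sample left out. In MNF_ciHep against MNF_ciEPC, 1 became 0 to 1 with a library left out. For the passage slope, 0 became 1 with no low-count filter or without series 1 passage 2, and 0 to 1 with a library left out. Smaller moves, over all alternatives, took the 4 lower in MNF_ciEPC against MNF to 3 to 6, the 7 lower in MNF_ciHep against pHep to 6 to 7, the 5 lower in MEF_ciHep against pHep to 4 to 6, the 2 lower in MEF_ciEPC against ESC_EPC to 2 to 3, the 7 higher in MEF_ciHep against MEF_ciEPC to 6 to 8, the 5 higher in MNF_ciHep against MNF_ciEPC to 4 to 5, and the 3 higher in the difference between origins at the second step to 2 to 4.

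Another scaling moved the median of all genes to at most 0.12. Groups of 2 or 3 libraries limit every call, and genes near 0 counts rest on a few reads.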
